A study of Mus musculus with 6 samples.

Results

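Plasminogen activators, the receptor of one of them and a set of protease inhibitors found in the ovarian follicle were followed in mouse granulosa cells. The rows were taken by gene symbol: the activators Plat and Plau, the receptor Plaur, the serpins Serpine2, Serpina5, Serpinb6a, Serpinf1 and Serpinh1, and the non-serpin inhibitor A2m, which are 9 of the 55860 genes in the deposited tables. Granulosa cells, the somatic cells around the oocyte, came from ovaries of Il22r+/+ mice and of Il22r-/- mice, which carry a disrupted receptor for the cytokine interleukin-22. After separation on a density gradient the cells of both genotypes spent 12 h in medium with 10% serum, and RNA was sequenced from 3 libraries per genotype. The sources used here do not give age, strain, the deleted exon or any pooling of animals, and nothing in the labels says that the libraries came from separate animals or cultures, so p-values measure the spread between these libraries, which may be technical.

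Plasminogen activators cut the inactive precursor plasminogen into plasmin, a protease that digests fibrin and matrix proteins and activates some metalloproteinases. The urokinase type, encoded by Plau, is held at the cell surface by the receptor Plaur. The tissue type, encoded by Plat, cuts plasminogen mainly at the surface of fibrin. Serpins trap serine proteases by a conformational change that destroys both proteins, and the same fold is used by some members that inhibit no protease. In the ovary, activators made by granulosa cells have long been studied for the breakdown of the follicle wall at ovulation.

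The libraries held 14.95 to 18.12 M counted reads (M, mega-reads). Levels below are CPM, counts per mega-read after TMM scaling, and log2 changes are Il22r-/- minus Il22r+/+ from edgeR's quasi-likelihood fit over 15227 genes, with Benjamini-Hochberg adjusted p-values over all of them and calls at an adjusted p under 0.05. For the receptor gene Il22ra1 the counts were 1, 5 and 4 in the control libraries and 5, 2 and 0 in the others, too few to check the labels. On the second principal component Il22r-/- replicate 3 had a score of 14.5, against -8.93 to 1.22 for the remaining 5 libraries. The granulosa markers Inha and Inhba were abundant in both genotypes (3202 and 1759 CPM in Il22r+/+, 2605 and 2858 CPM in Il22r-/-), and the summed level of the 13 granulosa markers was 5360 to 5890 CPM in Il22r+/+ and 6050 to 6720 CPM in Il22r-/-. Of the 10 markers tested, 4 were called higher and 1 lower, against 23.6% and 22.1% of all tested genes. Fshr, the receptor for follicle-stimulating hormone, had 13 reads in all of Il22r+/+ and 313 in Il22r-/-, while the aromatase gene Cyp19a1 had 36 and 1. In bulk RNA, fewer cells of a type and less RNA per cell cannot be told apart.

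Urokinase, its receptor and the inhibitor Serpine2 were each about 3-fold lower in Il22r-/- cells, and the tissue activator was slightly lower. The inhibitors A2m and Serpina5 were higher, from levels near 0 in Il22r+/+. The other serpins of the set did not pass the test. Of the 9 genes, 4 were called lower, against 22.1% of all tested genes, and 2 were called higher, against 23.6%. The 3 libraries of each genotype did not overlap for 6 of the 9, against 56.0% of all tested genes. Calls in either direction made up 45.7% of all tested genes, so a call by itself does not set these genes apart. Both A2m and Serpina5 reached the filter on low counts (0.568 CPM in at least 3 libraries) in Il22r-/- libraries alone, so a difference was built into their being tested. Without Il22r-/- replicate 3 the same 6 genes were called, with log2 changes of -0.31 for Plat, -1.48 for Plau, -1.61 for Plaur, -1.80 for Serpine2, 2.96 for Serpina5 and 6.48 for A2m.

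**Figure D1:**
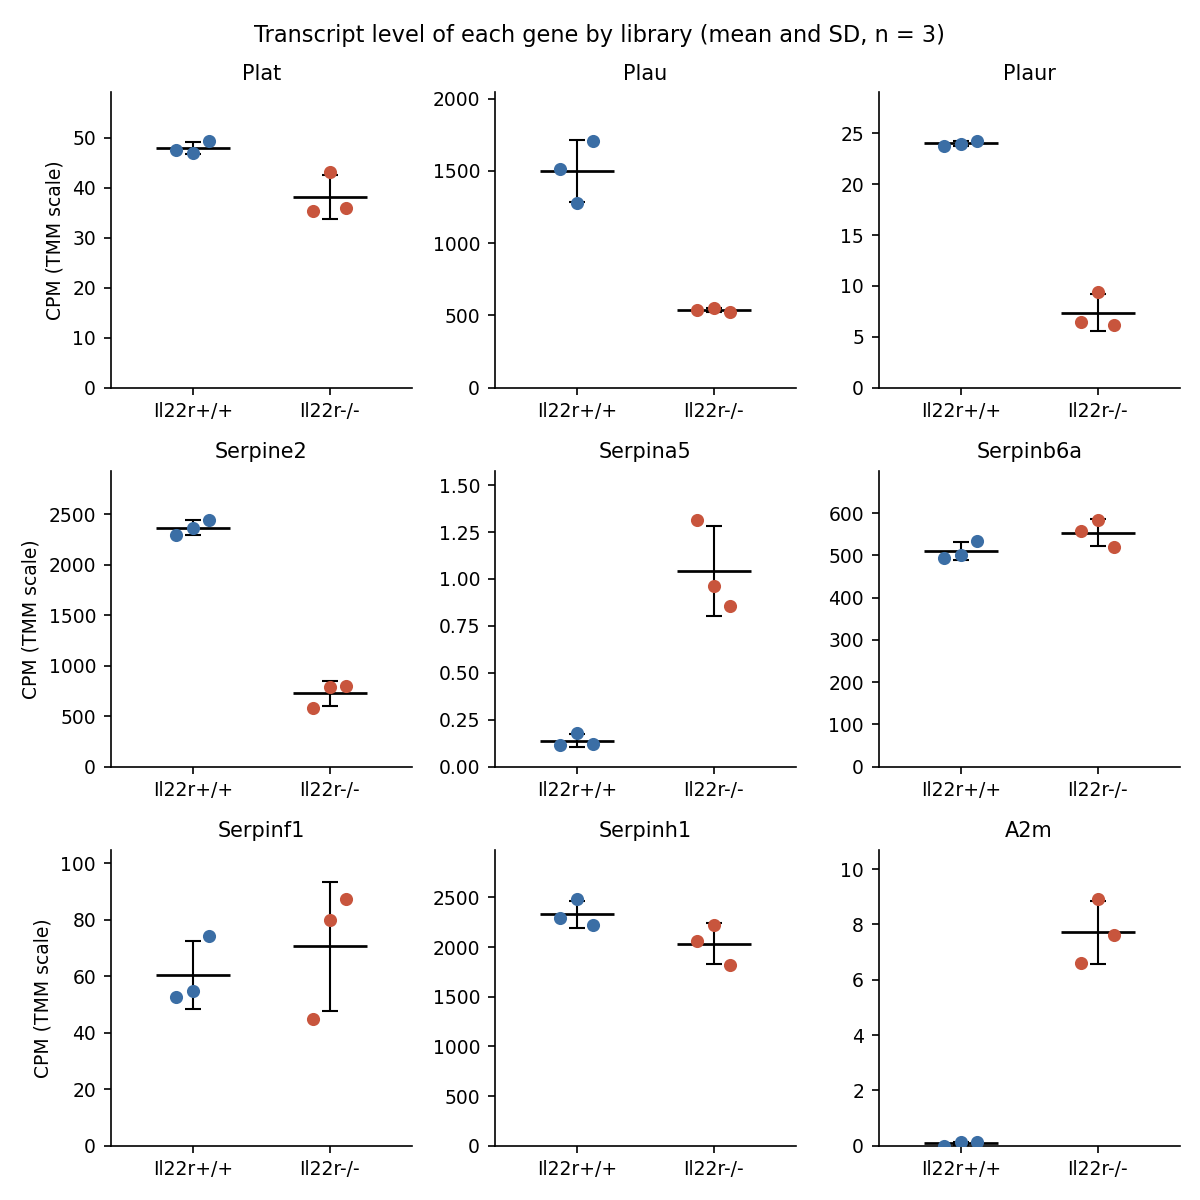
CPM of each of the 9 genes (y axes, linear and starting at 0) in the 3 libraries of each genotype (points), with the mean (line) and SD (bars). The genotypes do not overlap for Plat, Plau, Plaur, Serpine2, Serpina5 and A2m, and overlap for Serpinb6a, Serpinf1 and Serpinh1.

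Sequence windows upstream of the start sites are shown for members that fell (Serpine2 and Plaur), for one that rose (Serpina5) and for one that did not pass the test (Serpinb6a, at its outer start site). Each holds the 250 bases before the RefSeq start (GRCm38.p6, the assembly of mm10), written 5′ to 3′ along the gene. Capitals mark matches on either strand to the letters of a GC box (GGGCGG), a STAT site (TTCNNNGAA), an AP-1 site (TGANTCA), a cyclic AMP response element (TGACGTCA) or a TATA box (TATAAA). Matches of the GC box may overlap one another. RefSeq windows were found for 6 of the 9 genes (7 windows, 2 of them for Serpinb6a). None was found for Plat, Plau or A2m, so the motif counts below do not cover them.

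Serpine2, chr1:79858666-79858915, minus strand: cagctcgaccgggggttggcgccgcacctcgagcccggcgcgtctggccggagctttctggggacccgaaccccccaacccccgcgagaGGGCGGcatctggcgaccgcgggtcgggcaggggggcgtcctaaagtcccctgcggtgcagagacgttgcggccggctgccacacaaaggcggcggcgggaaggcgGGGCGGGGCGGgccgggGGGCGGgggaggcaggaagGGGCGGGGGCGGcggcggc

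Plaur, chr7:24462233-24462482, plus strand: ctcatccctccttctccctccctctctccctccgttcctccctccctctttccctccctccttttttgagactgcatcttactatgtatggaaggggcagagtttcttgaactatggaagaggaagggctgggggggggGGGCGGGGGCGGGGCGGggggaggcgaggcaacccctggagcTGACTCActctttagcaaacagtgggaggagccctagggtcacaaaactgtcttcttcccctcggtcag

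Serpina5, chr12:104100863-104101112, plus strand: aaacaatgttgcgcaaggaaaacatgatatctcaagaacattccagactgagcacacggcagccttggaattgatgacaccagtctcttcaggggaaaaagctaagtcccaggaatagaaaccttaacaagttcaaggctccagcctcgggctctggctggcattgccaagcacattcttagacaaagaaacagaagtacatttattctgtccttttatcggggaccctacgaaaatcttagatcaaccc

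Serpinb6a, chr13:34002795-34003044, minus strand: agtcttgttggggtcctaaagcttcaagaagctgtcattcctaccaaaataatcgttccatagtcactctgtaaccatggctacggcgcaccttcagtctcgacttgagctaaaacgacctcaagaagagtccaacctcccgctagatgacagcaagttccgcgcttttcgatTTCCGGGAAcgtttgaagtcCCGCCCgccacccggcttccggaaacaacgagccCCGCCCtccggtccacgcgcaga

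The Serpine2 window had 78.8% G and C and 6 GC box matches, and the Plaur window had 59.6% and 3 matches. The median over 32851 RefSeq windows of the same length was 52.4%, and 32.7% of those windows held a GC box match. Serpinb6a at its outer start site and Serpinh1, neither of them called, held 2 and 1 GC box matches. In all, 4 of the 7 member windows held one. The Plaur window also held an AP-1 match, found in 6.75% of all windows. The Serpina5 window, with 44.8% G and C, held no match to any of the 5 motifs. A STAT match stood in the Serpinb6a window, the only one of the 7 with it, against 7.02% of all windows. No member window held the cyclic AMP element (1.55% of all windows) or the TATA letters (12.4%). These are matches of letters and not bound sites. The RefSeq start of Serpine2 lies 2515 bases inside the 5′ end of the gene as deposited, so the gene has other annotated starts.

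Plau (ENSMUSG00000021822, mm10 chromosome 14, 20836660 to 20843385, plus strand) was the more abundant activator by far. It had 1516, 1276 and 1705 CPM in Il22r+/+ replicates 1 to 3 and 535, 553 and 527 CPM in Il22r-/- replicates 1 to 3. Every Il22r-/- library lay below every Il22r+/+ library, and the Il22r-/- libraries were closer together than those of Il22r+/+. The mean fell 2.78-fold, from 1499 ± 215 (SD, n = 3) to 538 ± 13.7 CPM, a log2 change of -1.48 ± 0.11 (SE; edgeR adjusted p = 3.62e-06).

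Plat (ENSMUSG00000031538, chromosome 8, 22757727 to 22782844, plus strand), the tissue activator, was measured at 47.7, 47.1 and 49.3 CPM in the Il22r+/+ libraries and at 35.4, 43.3 and 35.9 CPM in those of Il22r-/-. The groups did not overlap, and Il22r-/- replicate 2 came nearest to the controls. The mean fell 1.26-fold (log2 change -0.33 ± 0.09, edgeR adjusted p = 0.0156). The call of this small fall lay near the threshold under several alternatives. Without Il22r+/+ replicate 1 or 2 the call was kept (edgeR adjusted p = 0.0496 and 0.0398). With library size as the only scaling the log2 change was -0.23 and not called (edgeR adjusted p = 0.0716), and without Il22r+/+ replicate 3 it was -0.31 (edgeR adjusted p = 0.0602), in a range of adjusted p from 0.00373 over 15 alternatives. Library size alone also moved the median of all genes up by 0.103 on the log2 scale, and the calls over all genes from 3592 higher and 3371 lower to 4595 higher and 2630 lower.

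Plaur (ENSMUSG00000046223, chromosome 7, 24462484 to 24475968, plus strand), the anchor of urokinase at the cell surface, stood at 23.8, 24.0 and 24.2 CPM in Il22r+/+ libraries and at 6.46, 9.44 and 6.17 in Il22r-/- libraries. The Il22r+/+ libraries were almost equal, and all 3 Il22r-/- libraries lay far below them. Its mean fell 3.26-fold, with a log2 change of -1.70 ± 0.16 (edgeR adjusted p = 1.71e-05).

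Serpine2 (ENSMUSG00000026249, chromosome 1, 79794197 to 79861180, minus strand) encodes protease nexin-1, a secreted inhibitor of urokinase, the tissue activator, plasmin and thrombin that is made by granulosa cells. Counts of 39126, 39633 and 41168 reads in Il22r+/+ stood against 11139, 14828 and 12170 reads in Il22r-/-. On the CPM scale these were 2288, 2365 and 2438 against 585, 791 and 799, again with no overlap. The log2 change was -1.70 ± 0.12 (3.26-fold lower, edgeR adjusted p = 3.1e-06). Over 15 alternatives the log2 changes of Plau, Plaur and Serpine2 lay between -1.94 and -1.37 and each kept its call.

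Serpina5 (ENSMUSG00000041550, chromosome 12, 104101113 to 104106137, plus strand), the protein C inhibitor, a serpin that also acts on urokinase, was scarce in both genotypes. The Il22r+/+ libraries held 2, 3 and 2 reads and the Il22r-/- libraries 25, 18 and 13. Even the lowest Il22r-/- library held more reads than all of Il22r+/+ together. Pooled, this was 0.138 against 1.06 CPM, a ratio of 7.66 with an exact 95% interval of 3.48 to 19.9 that covers counting error only. The log2 change of 2.86 ± 0.49 was called (edgeR adjusted p = 0.000904).

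A2m (ENSMUSG00000030111, chromosome 6, 121635376 to 121679227, plus strand) encodes alpha-2-macroglobulin, a large secreted inhibitor that cages proteases of all classes, plasmin among them. Reads went from 0, 2 and 2 in Il22r+/+ to 126, 167 and 116 in Il22r-/-. Expression in Il22r+/+ was thus at the edge of detection, and all 3 Il22r-/- libraries were well above it. The pooled ratio was 97.9 (exact 95% interval 37.9 to 361, counting error only), and the mean in Il22r-/- was 7.72 ± 1.15 CPM (log2 change 6.49 ± 0.43, edgeR adjusted p = 1.59e-06). On the log2(FPKM + 1) scale the changes of A2m and Serpina5 shrank to 1.06 and 0.48, since the added value exceeds or nearly equals their levels, and on log2(FPKM + 0.1) to 3.43 and 1.81. All 4 of these values were called by limma.

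The remaining 3 serpins, Serpinh1, Serpinb6a and Serpinf1, did not pass the test. Serpinh1 (ENSMUSG00000070436, chromosome 7, 99345376 to 99353239, minus strand), the collagen chaperone HSP47 of the endoplasmic reticulum, which inhibits no protease, was at 2293, 2482 and 2222 CPM in the Il22r+/+ libraries and at 2058, 2225 and 1818 CPM in those of Il22r-/-. The highest Il22r-/- library overlapped the lowest Il22r+/+ library. Its log2 difference of -0.20 had a 95% interval of -0.42 to 0.03 (edgeR adjusted p = 0.138), which leaves out changes of the size seen for Serpine2.

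Serpinb6a (ENSMUSG00000060147, chromosome 13, 33917918 to 34002794, minus strand), an intracellular serpin, was read at 494, 501 and 534 CPM in control libraries and at 558, 583 and 520 CPM in Il22r-/- libraries. Here Il22r-/- replicate 3 fell inside the Il22r+/+ range. The log2 difference was 0.12 with a 95% interval of -0.06 to 0.30 (edgeR adjusted p = 0.262), and it was called only with library size as the scaling (0.22, edgeR adjusted p = 0.0463). Its exons are overlapped on the other strand by Nqo2 over 14.1%, by 1110046J04Rik over 10.8% and by Ripk1 over 4.46% of their length. Of the 50-base words of its transcripts, 25.1% also occur, on either strand, in transcripts of other genes. Those genes include the overlapping ones and Serpinb6c, so this share counts the overlaps again. The strand setting of the counting is not given, so these levels may include reads of those genes or lack reads from the overlaps.

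Serpinf1 (ENSMUSG00000000753, chromosome 11, 75409769 to 75422701, minus strand), the pigment epithelium-derived factor, a secreted protein that restrains vessel growth and inhibits no protease, varied widely between libraries. Values were 52.6, 54.7 and 74.3 CPM in Il22r+/+ against 44.7, 79.8 and 87.2 CPM in Il22r-/-, so that Il22r-/- libraries were both the lowest and the highest of the 6. The log2 difference was 0.22 with a 95% interval of -0.44 to 0.88 (edgeR adjusted p = 0.551). Without Il22r-/- replicate 1 it was 0.46 and called (edgeR adjusted p = 0.0284), and without Il22r-/- replicate 3 it was 0.02, in a range of adjusted p up to 0.965 over 15 alternatives.

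**Figure D2:**
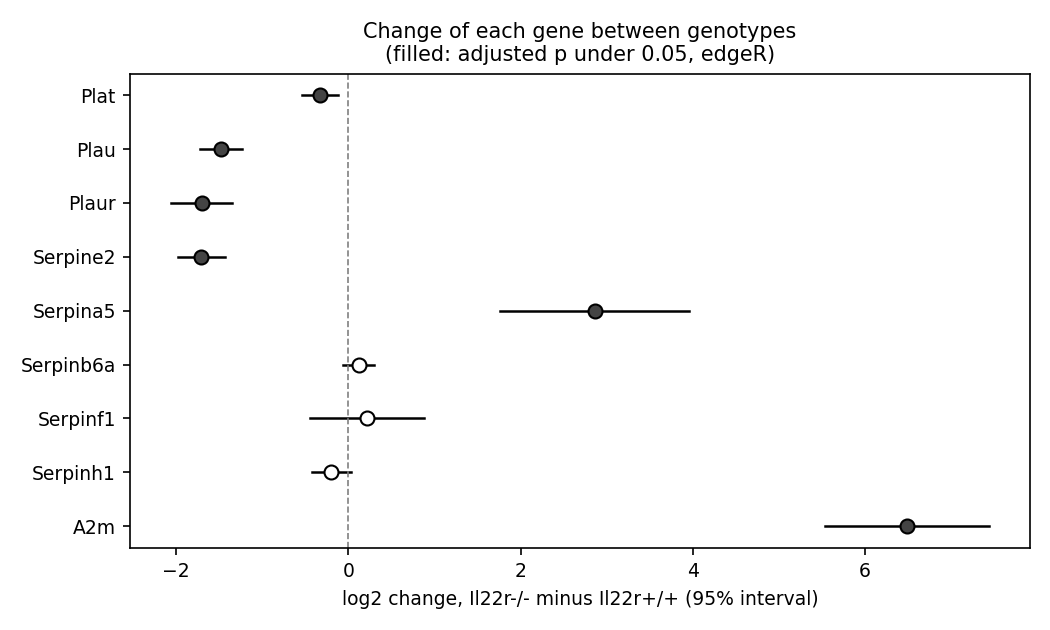
Log2 change (x axis, Il22r-/- minus Il22r+/+) of each of the 9 genes with its 95% interval (bars). Filled points passed the edgeR test: Plau, Plaur and Serpine2 lie between -1.70 and -1.48, Plat at -0.33, Serpina5 at 2.86 and A2m at 6.49.

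Apart from Serpinb6a, the exons of the members overlapped those of no other gene in GENCODE M21 (mm10). Shared 50-base words made up 0.303% for Serpine2 and 0 for the remaining 7.

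Levels of different genes were compared on the deposited FPKM scale, which divides by gene length. Serpinh1 was first in all 6 libraries, with 936 to 1042 FPKM in Il22r+/+ and 758 to 919 FPKM in Il22r-/-, and Plau was second in all 6, with 553 to 742 and 226 to 236 FPKM. Serpine2 came next in Il22r+/+ (284 to 303 FPKM), ahead of Serpinb6a (94.0 to 102 FPKM), without overlap. In Il22r-/- these neighbours overlapped, at 70.6 to 98.2 FPKM for Serpine2 and 97.9 to 109 FPKM for Serpinb6a, and they changed places in 2 of the 3 libraries. Serpinf1 followed throughout, at 19.0 to 37.7 FPKM. Plaur stood above Plat in every Il22r+/+ library (9.35 to 9.53 against 7.74 to 8.14 FPKM) and below it in every Il22r-/- library (2.40 to 3.64 against 5.68 to 6.99 FPKM). Serpina5 and A2m were last, at no more than 0.0849 FPKM in Il22r+/+, where A2m was listed at 0 in replicate 1, and at 0.402 to 0.608 FPKM and 0.943 to 1.28 FPKM in Il22r-/-.

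Ratios of transcripts within a library, which do not depend on library scaling, did not separate the genotypes for urokinase against its receptor or against Serpine2. Serpine2 over Plau was 0.431, 0.529 and 0.408 in Il22r+/+ and 0.312, 0.408 and 0.434 in Il22r-/- (FPKM ratios). The groups overlapped, with a mean log2 difference of -0.25 (exact two-sided permutation p = 0.4). Plaur over Plau was 0.0142, 0.0170 and 0.0128 against 0.0109, 0.0154 and 0.0106, which also overlapped (mean log2 difference -0.27, exact two-sided permutation p = 0.3). In contrast, Serpine2 over Plat was 36.2, 37.8 and 37.2 in Il22r+/+ and 12.4, 13.8 and 16.8 in Il22r-/-, with no overlap (mean log2 difference -1.38, exact two-sided permutation p = 0.1). The smallest p that 3 against 3 libraries can give is 0.1, and adjusted over these 3 ratios the values were 0.4, 0.4 and 0.3.

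The ratio of the activators was chosen after its values were seen and carries no test. Plau over Plat was 83.8, 71.5 and 91.2 in Il22r+/+ and 39.9, 33.7 and 38.6 in Il22r-/-, with no overlap, and urokinase transcripts were in excess in both genotypes.

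**Figure D3:**
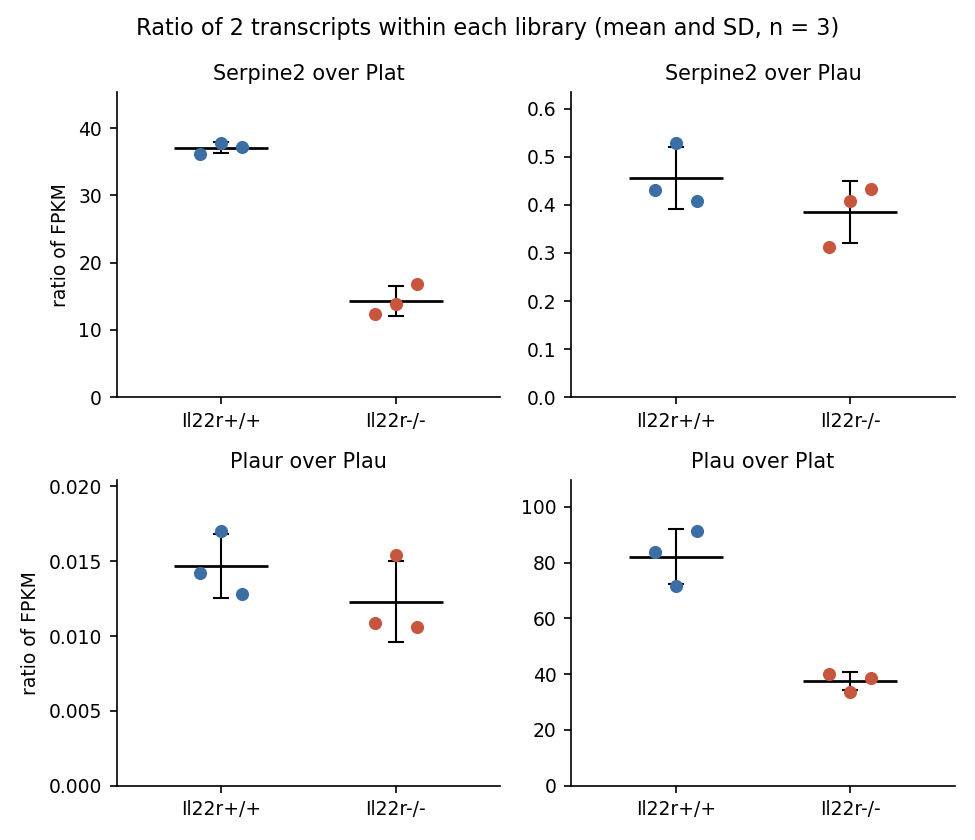
Ratio of the FPKM values of 2 transcripts (y axes, linear and starting at 0) in each library (points), with mean (line) and SD (bars) per genotype. The ratios Serpine2 over Plau and Plaur over Plau overlap between the genotypes, and the ratios Serpine2 over Plat and Plau over Plat do not.

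In the wider plasmin system, 10 of 23 listed genes were tested, of which 3 were called lower, 2 higher and 5 not called. The share called, 50%, was near the 45.7% of all tested genes. The median log2 change was -0.08, against 0.03 over all tested genes. Lrp2 and Lrp1, endocytic receptors that take up complexes of protease and inhibitor, fell 13.6-fold and 1.71-fold, from 34.6 and 820 CPM (edgeR adjusted p = 4.26e-07 and 0.000254). Mrc2, a collagen receptor that associates with the urokinase receptor, rose 2.42-fold to 12.4 ± 4.38 CPM (edgeR adjusted p = 0.00364), and Eno1, an enolase that also binds plasminogen, rose 1.35-fold. On the log2(FPKM + 1) scale the changes of Lrp2 and Mrc2 were -1.44 and 0.66, and that of Lrp2 was -3.15 on log2(FPKM + 0.1), against -3.78 and 1.27 in the edgeR fit, with their calls kept. Eno1 and the genes in the next sentence were named after their values were seen. The plasminogen-binding proteins Anxa2, S100a10 and Plgrkt, the matrix protein Thbs1 and the receptor Vldlr were not called, with log2 differences from -0.18 to 0.11. Without Il22r-/- replicate 3, 8 of the 10 genes were called in place of 5. Calls over all genes also rose in that setting, from 6963 of 15227 to 8243 of 15673. Plasminogen itself, Plg, had 1 read in 6 libraries, which were 0 reads in Il22r+/+ (at most 0.0591 CPM with 3 counts as the limit) and 1 in Il22r-/-.

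Among the other serpins, 64 symbols were in the table, 34 had no reads, 20 had too few for the test and 10 were tested. Of these, 6 were called lower and 2 higher, against 22.1% and 23.6% of all tested genes, with a median log2 change of -0.35. Serpinb9b fell 1.83-fold from 435 CPM and Serpinb8 fell 2.51-fold from 2.31 CPM, both being intracellular clade B serpins. The log2 change of Serpinb8 was -1.32 in the edgeR fit and -0.32 on the log2(FPKM + 1) scale, where it was still called. Serpinb6b, a neighbour of Serpinb6a in the family named after its values were seen, averaged 385 CPM in Il22r+/+ against 327 CPM in Il22r-/- (log2 change -0.24, edgeR adjusted p = 0.0366). Serping1, the inhibitor of the first complement component, rose 1.80-fold from 1.55 CPM, but its edgeR adjusted p of 0.0477 was over the threshold in 11 of 15 alternatives, up to 0.223. Serpinb1a, the other of the 2 genes called higher, had means of 32.0 CPM in Il22r+/+ and 52.3 CPM in Il22r-/-, without overlap. The log2 change of Serpinb1a was 0.71 (edgeR adjusted p = 0.000139). It was picked with this result already known, and its values under the alternatives are not given here. The count of 8 calls fell when certain libraries were left out. It was 4 without Il22r+/+ replicate 1, 4 without Il22r+/+ replicate 2, 5 without Il22r+/+ replicate 3 and 4 without Il22r-/- replicate 1. Calls over all genes fell too, from 6963 to 5411, 5775, 5624 and 6196 in that order.

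Clotting genes and other cell-surface proteases with their inhibitors made up a list of 29, of which 19 were tested. Of these, 10 were called lower, against 22.1% of all tested genes, and 5 higher, against 23.6%, with a median log2 change of -0.45. Spint1, a Kunitz-type inhibitor of membrane serine proteases, fell 12.3-fold from 34.7 ± 2.76 to 2.82 ± 0.177 CPM (edgeR adjusted p = 3.45e-08), a log2 change of -3.62 that was -2.77 on the log2(FPKM + 1) scale. Procr, the endothelial protein C receptor, fell 2.96-fold, and its call ended without Il22r-/- replicate 3 (edgeR adjusted p = 0.0599, in a range from 4.96e-06 over 15 alternatives). Pros1, the protein S cofactor of activated protein C, rose 3.88-fold from 34.3 CPM (edgeR adjusted p = 4.68e-07). Prss35, a secreted serine protease-like protein of the follicle, rose 2.96-fold from 456 to 1348 ± 406 CPM (edgeR adjusted p = 0.000236).

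**Figure D4:**
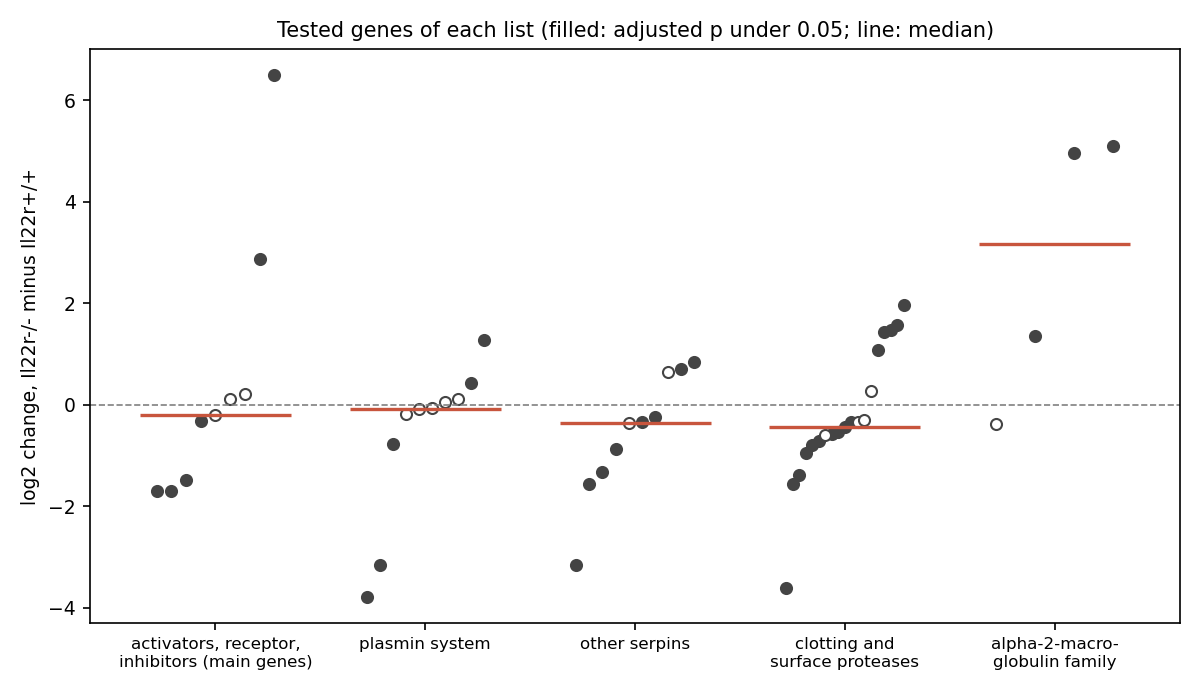
Log2 change (y axis, Il22r-/- minus Il22r+/+) of every tested gene in the main gene set and in 4 wider lists (x axis). Filled points were called by edgeR, red lines are medians, and the main genes span -1.70 to 6.49.

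In the alpha-2-macroglobulin family list, 6 symbols were in the table and 4 were tested, of which 3 were called higher, against 23.6% of all tested genes, and the complement gene C3 was not called. For 2 of these 3 a difference was built into their being tested. Cd109, a membrane-anchored member of the family, rose 2.57-fold from 8.16 to 21.0 ± 5.92 CPM (edgeR adjusted p = 0.000901). Mug1 and Mug2, the murinoglobulin genes, named after their values were seen, had 1 and 2 reads in all of Il22r+/+ and 44 and 86 reads in Il22r-/-. Like A2m, these passed the filter through Il22r-/- libraries alone. Mug1 lies 159 kb and Mug2 328 kb from A2m on chromosome 6. Within 500 kb of A2m there were 24 other genes, of which 5 were tested: Mug1 and Mug2 were higher, the interferon-responsive Usp18 was lower, and Pex26 and Tuba8 were not called. Below the filter, Gm7298 had 1 read in Il22r+/+ and 27 in Il22r-/-, and Mug-ps1 had 0 and 26.

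Over the 6 libraries, the genes with the highest Pearson correlation to a member in log2 CPM, out of 10574 candidates, were Pafah1b2, Map2k1 and Scarb2 for Serpine2 (r of at least 0.9997), Rcn3, Mcfd2 and Slc3a2 for Plat (at least 0.9943) and Gprc5b, Tm7sf2 and Yap1 for Plau (at least 0.9988). Their log2 differences lay between -1.66 and -0.29. The negative sign followed from choosing the highest positive correlations with members that were lower in Il22r-/-. The step between genotypes is shared by all 6 points, so these values describe a common pattern and carry no test.

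Markers of cell types other than granulosa cells also differed. The counts below stand against 23.6% of all tested genes called higher and 22.1% called lower. The macrophage list had 10 of 11 tested markers higher and none lower. Its summed level was 11.0 to 13.8 CPM in Il22r+/+ and 30.9 to 91.0 CPM in Il22r-/-. For C1qa, C1qb, Tyrobp, Adgre1 and Mrc1 a difference was built into their being tested, as they passed the filter through Il22r-/- libraries alone. The same held for the endothelial marker Kdr and the granulosa marker Fshr. C1qc, Fcer1g, Pecam1, Actg2, Myh11, Des and Col1a2 reached 0.568 CPM in every Il22r-/- library but not in every Il22r+/+ library. Their being tested thus also rested on the Il22r-/- libraries. In the mesothelial list 4 of 6 tested markers were lower and none higher, with sums of 238 to 242 CPM against 10.9 to 22.7 CPM. The smooth muscle list had 4 of 6 higher and 1, Tagln, lower (267 to 322 against 357 to 577 CPM). Acta2 made up most of that sum (mean 277 against 462 CPM). The stromal list had 1 of 6 higher and 1 lower (348 to 445 against 139 to 270 CPM). These went opposite ways: Dcn fell from a mean of 243 to 10.6 CPM, and Col1a2 rose from 1.61 to 61.3 CPM. Endothelial markers summed to 3.74 to 5.63 against 4.34 to 7.90 CPM, with 2 of 3 tested higher and 1 lower. Oocyte markers summed to no more than 2.99 CPM, with none of 2 tested called. Of the 5 theca markers, Cyp17a1 and Insl3 had at most 4 reads per genotype, and Aldh1a1 made up nearly all of the sum (5070 to 5220 against 3830 to 4380 CPM), 1 of 2 tested genes being higher and 1 lower. No marker of any list was at 0 in all 6 libraries. Sums rose in the macrophage, smooth muscle and granulosa lists, the direction of A2m and Serpina5. They fell in the mesothelial, stromal and theca lists, the direction of Plau, Plaur and Serpine2. The part of any of these cell types in the changes of the protease and inhibitor genes was not tested.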

How the data were processed

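RNA from granulosa cells of 2 genotypes, 3 libraries each, was measured. The authors deposited raw read counts per gene, made with featureCounts 1.5.0-p3 on mm10, per the submitters' processing notes. The sources used here name neither aligner nor strand setting. The authors also deposited FPKM values, which equal the counts divided by gene length and by 0.936 to 1.05 times the library total. They were used for levels between genes and as an alternative.

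Genes passing filterByExpr were fitted in edgeR 4.0.16 (TMM, robust quasi-likelihood, genotype only) under R 4.3.3, and the step was tested on simulated data. Alternatives used DESeq2 1.42.0, limma 3.58.1, other scalings and filters, FPKM with pseudocounts of 1 and 0.1, a replicate block, and each library left out. Same-numbered libraries of the genotypes did not deviate together (correlations 0.026, -0.0406 and -0.0278), so the numbers were not taken as pairs. Replicates differed by more than sampling noise.

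Members and lists were chosen with earlier results of these data known. Named genes are the members, Plg, Il22ra1, up to 4 called genes per list by size of change (mean CPM of 1 or more), and the 3 genes most correlated with Serpine2, Plat and Plau at a mean of at least 5 CPM. A gene that this rule also names is not reported here. Counting intervals and limits cover counting error only. Promoter windows are from RefSeq (GRCm38.p6), overlaps from GENCODE M21.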

Additional observations from a re-analysis of the deposited data

How the results depend on the processing

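Over 134 values of the 9 genes under the alternatives, 130 kept their direction and their side of the threshold and none changed direction. The exceptions were Plat (-0.23 with library size alone and -0.31 without Il22r+/+ replicate 3, no longer called), Serpinb6a (0.22 with library size alone, called) and Serpinf1 (0.46 without Il22r-/- replicate 1, called). The cause was not tested. Serpina5 had no value under the filter of at least 1 CPM in 3 libraries. The number of the 9 genes called was 5 to 6 under other settings and 5 to 7 with 1 library left out. Over all genes, 6405 to 7476 were called under other settings and 5411 to 8243 with 1 library left out. With 1 library left out, the plasmin system list had 5 to 8 calls, the other serpins 4 to 8, and the clotting and surface protease list 13 to 15. The mean log2 differences of Serpine2 over Plat, Serpine2 over Plau and Plaur over Plau lay between -1.50 and -1.29, between -0.35 and -0.11, and between -0.44 and -0.16 with 1 library left out. With the replicate block 6405 genes were called in place of 6963, and the block changed no call of the 9 genes, Plat included (edgeR adjusted p = 0.027). The same member windows matched each motif whether or not the 50 bases after the start were searched. Depth limits A2m and Serpina5, with 4 and 7 reads in all of Il22r+/+.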
